A study of Homo sapiens with 12 samples.

Results

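This account covers the niraparib response of cells in which HPF1, named C4orf27 in the library, was knocked down together with a second gene. Constructs were taken that carried a C4orf27 sgRNA in either of their 2 positions and an sgRNA of another gene in the other position. They gave 542 partner genes of the 543 genes in the library, with 8 constructs for each partner and 4336 of the 1301881 constructs in all. C4orf27 was selected on its own measured niraparib response, so that response is given as a description, without a test. The 4 constructs with a C4orf27 sgRNA in both positions were left out.

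The cells were K562, a human leukaemia line, engineered for CRISPR interference (CRISPRi), in which a catalytically dead Cas9 fused to a repressor is guided to a gene's start by an sgRNA. All groups carried the same dual-sgRNA library, and the count of each construct's sgRNA cassettes in genomic DNA measured how the cells holding it had grown. There were 12 libraries from 2 screens, with 2 replicate cultures in each of 6 groups. Each culture was sampled at T0, on day 9 after transduction, and then divided into a niraparib arm and a DMSO (vehicle) arm, so a replicate number ties together 3 libraries of one culture. In the 2022 screen the drug arm received 2 µM niraparib for 3 days and both arms were collected on day 18. In the 2023 screen it received 2 µM, raised to 3 µM from day 2, for 4 days in all, and both arms were collected on day 19. Expression was not measured, so the strength of each knockdown is not known here.

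HPF1 binds PARP1 and PARP2 at sites of DNA damage and completes their active site, which directs ADP-ribose onto serine residues of histones and of PARP1 itself. PARP1 senses DNA breaks and calls in single-strand break repair. Niraparib blocks the catalytic site of PARP1 and PARP2 and holds PARP1 on DNA. Lesions of this kind are met by replication forks and are repaired largely by homologous recombination, which is why cells short of BRCA1 or BRCA2 are sensitive to this class of drug.

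The start of HPF1 is shown because CRISPRi sgRNAs are guided to a gene's start. It is set beside the starts of PARP1 and AUNIP, the partners whose responses are described first. Sequences are from RefSeq (GRCh38.p14), 250 bases before each gene's start on the gene's own strand, 5′ to 3′, with each match to GGGCGG or its reverse complement CCGCCC in capitals. HPF1 lies on chromosome 4, minus strand, with the window at chr4:169757945-169758194. PARP1 and AUNIP lie on chromosome 1, minus strand, with windows at chr1:226408094-226408343 and chr1:25859458-25859707.
HPF1: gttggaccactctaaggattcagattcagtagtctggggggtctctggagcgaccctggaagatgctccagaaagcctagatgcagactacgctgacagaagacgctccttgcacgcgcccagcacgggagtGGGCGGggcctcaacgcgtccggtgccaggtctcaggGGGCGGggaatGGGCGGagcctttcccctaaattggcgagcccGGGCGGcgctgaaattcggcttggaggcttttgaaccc
PARP1: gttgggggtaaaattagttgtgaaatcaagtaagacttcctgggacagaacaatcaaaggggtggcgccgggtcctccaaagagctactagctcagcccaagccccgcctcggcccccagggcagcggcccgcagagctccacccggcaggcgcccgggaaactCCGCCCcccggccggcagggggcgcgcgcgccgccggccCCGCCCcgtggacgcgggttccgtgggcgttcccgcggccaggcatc
AUNIP: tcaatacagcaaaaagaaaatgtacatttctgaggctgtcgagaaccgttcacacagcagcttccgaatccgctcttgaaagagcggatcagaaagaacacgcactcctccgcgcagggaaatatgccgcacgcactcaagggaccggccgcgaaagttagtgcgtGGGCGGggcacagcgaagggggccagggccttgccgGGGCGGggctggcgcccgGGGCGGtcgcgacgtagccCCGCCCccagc
The HPF1 window held 4 matches, all on the printed strand. The PARP1 window held 2 and the AUNIP window held 4. A match on either strand was found in 42.6% of the 35116 promoters of the same length. The names of the 2 C4orf27 sgRNAs carry the positions 170678601 (+) and 170679066 (-), which lie 465 bases apart. The build of those positions is not given in the sources used here, so they were not placed on the sequence. Whether they lie within the 250 bases shown is not known here.

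Reads for these comparisons were thin at the level of single constructs. Library totals ran from 182.6 to 460.7 megareads. The median member construct had 57 to 379.5 reads, depending on the library, and 0.0461% to 0.530% of member constructs had none. Counts were therefore summed over the 8 constructs of a partner, giving a median of 1402.5 reads per partner and library, with a lowest sum of 11. The same partner with 55 non-targeting sgRNAs had a median of 53519 reads. Reads were made by PCR without molecular identifiers, so counting error is a lower limit of the technical error.

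A response is the log2 ratio of niraparib over DMSO in one culture. In the C4orf27 background it is taken relative to the 220 constructs of C4orf27 with non-targeting sgRNAs, so a value of 0 is the response of C4orf27 knockdown alone. In the non-targeting background it is taken relative to the 3025 constructs with 2 non-targeting sgRNAs. A response difference is the first minus the second. It was tested with edgeR's quasi-likelihood fit on all 12 libraries, with the culture as a block, and with Benjamini-Hochberg adjustment over 542 partners and 27 control pairs of non-targeting sgRNAs at a threshold of 0.05. Both backgrounds come from the same libraries, so their values are given side by side. The fit blocks each culture within each background and holds the 2 backgrounds as separate columns. Variation that both backgrounds of a library share thus stays in the error of the difference, which can widen its SE and lose calls. The joint fit also has 8 residual degrees of freedom, beside 4 for one background, from the same 4 cultures. That can make calls too easy. The cultures come from 2 screens of one cell line, and p-values measure the spread between cultures. A fit without one culture leaves that screen with a single culture, whose libraries are then fitted exactly. The p-values of such a fit rest on the spread in the other screen alone. A call lost or gained there need not mean a changed value.

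C4orf27 knockdown alone was depleted under niraparib in all 4 cultures. In the first replicate of 2022, its 220 constructs had 140111 reads in DMSO and 41583 under niraparib, while the 3025 non-targeting constructs had 2265341 and 1662084. The log2 response was -1.31 and -1.32 in 2022 and -1.56 and -1.58 in 2023, a mean of -1.44 ± 0.15 (SD, n = 4), which is a 2.72-fold depletion. The 2 sgRNAs were unequal. The one with + in its name gave -0.95 ± 0.11 (SD, n = 4) and the one with - gave -2.10 ± 0.18 (SD, n = 4), with no overlap between them in any culture. Without drug, C4orf27 knockdown had a growth value (log2 of DMSO over T0) of -0.06 ± 0.07 (SD, n = 4).

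PARP1 was the partner with the highest response in the C4orf27 background. Relative to C4orf27 alone it stood at 3.15 and 2.35 in 2022 and at 2.78 and 2.82 in 2023. With non-targeting sgRNAs it stood at 2.61, 1.79, 2.08 and 2.08 in the same cultures. The ranges overlap, but in each culture the value was higher in the C4orf27 background, by 0.54, 0.56, 0.70 and 0.74. The response difference was 0.64 ± 0.18 (SE; edgeR, adjusted p = 0.00867). It lost the call without the first 2023 culture (0.65, adjusted p = 0.116) and without the second (0.63, adjusted p = 0.115), and it was not above the line through all partners (residual -0.064). The edgeR fit did not pair the 2 backgrounds within a culture.

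Measured against constructs with 2 non-targeting sgRNAs, cells with both PARP1 and C4orf27 knocked down were still enriched by niraparib. Their values were 1.84, 1.03, 1.22 and 1.24, a mean of 1.33 ± 0.35 (SD, n = 4), beside 2.14 ± 0.34 (SD, n = 4) for PARP1 with non-targeting sgRNAs. Adding C4orf27 knockdown to PARP1 knockdown changed the value by -0.81 ± 0.05 (SD, n = 4), and the 4 double values lay below the PARP1 value of their own culture. All 4 pairings of a PARP1 sgRNA with a C4orf27 sgRNA gave a response in the C4orf27 background between 2.56 and 2.84. Only 6 of the 542 double knockdowns had a mean above 0 on this scale, and 4 were above 0 in every culture. The 6 were PARP1, CAD, NOP10, DCTN3, DKC1 and ATXN10, and they are listed here because the count is small.

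**Figure D1:**
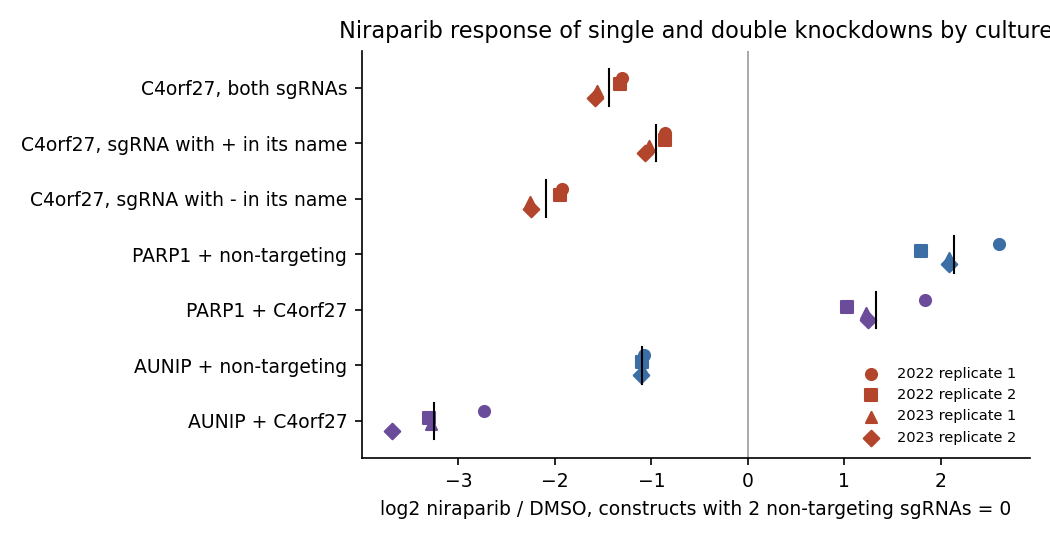
Log2 ratio of niraparib over DMSO on the horizontal axis, with constructs of 2 non-targeting sgRNAs at 0, for C4orf27 alone and for PARP1 and AUNIP with non-targeting or C4orf27 sgRNAs. Each point is a culture and each vertical bar is the mean of the 4; PARP1 with C4orf27 stays above 0 (mean 1.33) and AUNIP with C4orf27 is at -3.25.

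AUNIP, a factor that helps CtIP start the resection of broken DNA ends, was the partner with the lowest response difference. In the C4orf27 background its response was -1.43 and -1.99 in 2022 and -1.72 and -2.10 in 2023. With non-targeting sgRNAs it was -1.07, -1.09, -1.10 and -1.11. The groups did not overlap, and the spread was far wider in the C4orf27 background. The difference was -0.70 ± 0.09 (SE; edgeR, adjusted p = 2.45e-05), and it passed the threshold in all 25 alternative analyses. Values ran from -2.14 to -0.43. The -2.14 came from scaling to each background's doublings, described below, which is a different scale. AUNIP had a growth value without drug of 0.00 ± 0.05 (SD, n = 4) with non-targeting sgRNAs. The 4 pairings of its sgRNAs with those of C4orf27 gave responses from -1.94 to -1.67. Both genes together stood at -3.25 ± 0.39 (SD, n = 4) against non-targeting constructs, beside -1.09 ± 0.02 for AUNIP and -1.44 ± 0.15 for C4orf27 alone (SD, n = 4 each).

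Across all partners, most response differences lay above 0. In the C4orf27 background 138 partners were lower than C4orf27 alone (25.5% of those tested) and 271 were higher (50%). With non-targeting sgRNAs 193 were lower (35.6%) and 242 higher (44.6%). The response difference was lower for 54 partners (9.96%) and higher for 292 (53.9%), of which 49 and 274 had the same sign in all 4 cultures. Its median was 0.18 over all partners, while the medians of the responses themselves were 0.14 with C4orf27 and 0.01 with non-targeting sgRNAs.

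The balance of lower to higher calls rested on what was taken as 0. With TMM scaling over the partners, which moves the median difference to 0.06, 150 partners were lower and 207 higher. With median-of-ratios scaling, which moves it to 0.01, 173 were lower and 179 higher. Lower calls thus made up 15.6% of calls with the reference constructs, 42.0% with TMM and 49.1% with median-of-ratios. For the response in the C4orf27 background the same shares were 33.7%, 48.0% and 47.6%. All 54 partners called lower were also called lower under both scalings, as were 207 and 179 of the 292 called higher. Without the first 2023 culture 27 partners were lower and 225 higher.

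The 27 control pairs, each made of 2 non-targeting sgRNAs and treated like a gene with 8 constructs, gave response differences from -0.17 to 0.15 with a median of 0.01. They are part of the reference themselves. Of the 27, 4 passed the threshold in the response difference, so small differences that pass are not beyond what these controls gave. Of the 346 partners called in either direction, 310 lay outside the controls' range, 35 of them lower.

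**Figure D2:**
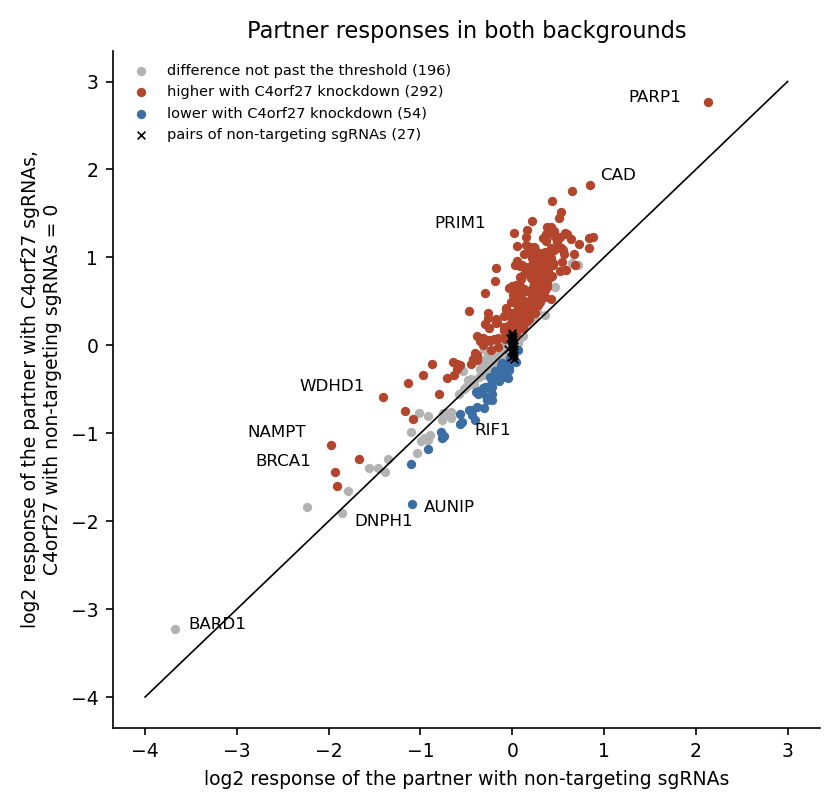
Log2 response of each of the 542 partners with non-targeting sgRNAs (horizontal axis) against its response with C4orf27 sgRNAs, relative to C4orf27 alone (vertical axis), with the line of equal values. The 292 partners with a higher response in the C4orf27 background form the upper cloud, with PARP1 at the top right, and AUNIP is the farthest of the 54 lower ones.

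The size of the response difference moved with the partner's growth without drug. For the 26 partners whose growth value with non-targeting sgRNAs was -2 or lower, the median difference was 0.76, with 25 higher and 0 lower. For the 121 partners between -2 and -1 the median was 0.57, with 115 higher and 0 lower. It was 0.31 for 115 partners between -1 and -0.5, with 93 higher and 1 lower. It was 0.05 for 143 partners between -0.5 and -0.1, with 45 higher and 23 lower. For the 137 partners above -0.1 the median was -0.03, with 14 higher and 30 lower. The growth values share DMSO libraries with the responses, and the part of growth in the differences was not tested.

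A further scaling used an estimate of how often the cells of each background divided. The constants recovered from the deposited phenotype tables, which the labels do not explain and whose size is that of cell doublings, were 4.98 to 5.4 in the drug arms. Adding the log2 change of C4orf27 with non-targeting sgRNAs gave 3.38 to 4.04 for that background. This lower figure restates the response of C4orf27 itself and is no separate measurement. In each background the log2 change of niraparib over T0 was multiplied by DMSO doublings over drug-arm doublings. The log2 change of DMSO over T0 was then subtracted. That multiplier is larger in the C4orf27 background, so negative drug-arm changes are enlarged more there. A turned sign can follow from this alone, and the values are not on the scale of the other response differences. When each background's response was scaled to its own doublings, an analysis added after the values were seen, 86 partners were lower and 133 higher. Values under this scaling, called scaling to each background's doublings, stand below beside the partners whose direction or call it changes.

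**Figure D3:**
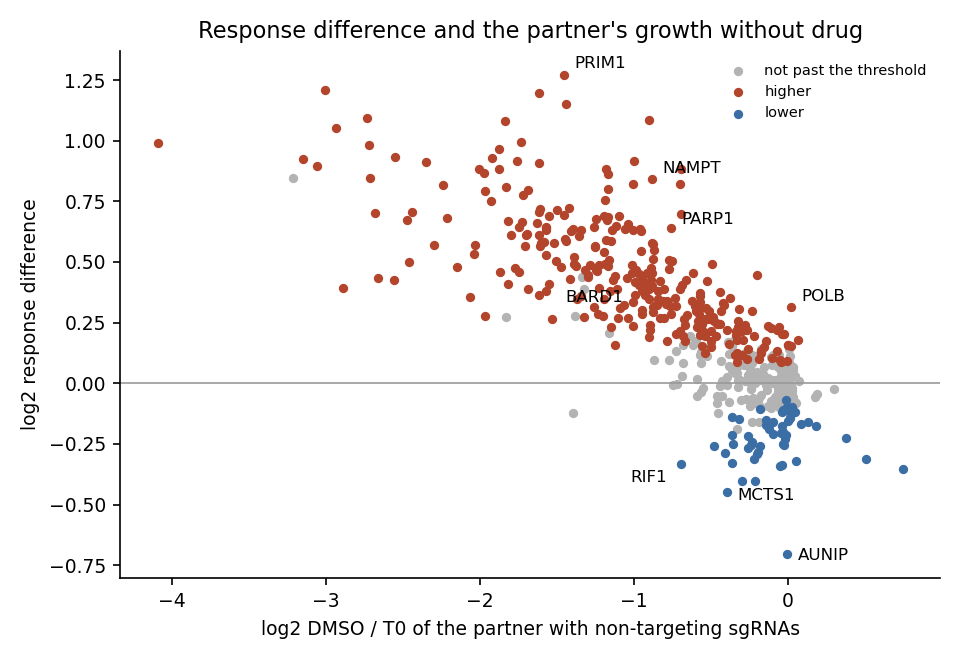
Response difference (vertical axis, log2) against the partner's growth without drug with non-targeting sgRNAs (horizontal axis, log2 DMSO over T0) for 542 partners. Partners with low growth lie nearly all above 0, and the lower calls, AUNIP among them, lie mostly at growth values near 0.

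The 12 partners with the lowest differences had fitted responses between -1.09 and -0.05 with non-targeting sgRNAs. After AUNIP came MCTS1, which works with DENR in translation re-initiation. Its response was -0.69, -0.93, -0.90 and -0.90 with C4orf27 and -0.28, -0.55, -0.37 and -0.41 with non-targeting sgRNAs, without overlap. The difference was -0.45 ± 0.10 (SE; edgeR, adjusted p = 0.00192), and it lost the call without the first 2023 culture (-0.44, adjusted p = 0.0529).

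RHOXF2, a homeobox gene of the germ line, had a difference of -0.40 ± 0.05 (SE; edgeR, adjusted p = 2.71e-05). Its responses were -0.69, -0.97, -0.58 and -0.60 with C4orf27, all below its values of -0.27, -0.38, -0.31 and -0.28 with non-targeting sgRNAs. G3BP1, which nucleates stress granules, also had a difference of -0.40, but with an SE of 0.10 and an adjusted p of 0.00366 (edgeR). In the first 2022 culture it stood at -0.21 with C4orf27, within the range with non-targeting sgRNAs, and it lost the call without either 2023 culture (adjusted p = 0.0971 and 0.0589).

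C12orf66, a subunit of the KICSTOR complex that holds mTORC1 in check, had a difference of -0.35 ± 0.04 (SE; edgeR, adjusted p = 7.71e-06). It stood at -0.60, -0.71, -0.96 and -0.89 with C4orf27, below -0.41, -0.44, -0.46 and -0.44 with non-targeting sgRNAs in every pairing of cultures. Its knockdown raised growth without drug (0.75 with non-targeting sgRNAs). TSC1, the other measured gene of that list, was also lower (-0.16), and that call was lost without the first 2023 culture (-0.12, adjusted p = 0.0502) and with each background's doublings (adjusted p = 0.0873). GPS2, a subunit of the NCoR-SMRT corepressor with a growth value of 0.51, had a difference of -0.31.

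The remaining partners of these 12 were between -0.34 and -0.31. C17orf53 (HROB), which loads the MCM8-MCM9 helicase in recombination, was at -0.34, and its growth value without drug was -0.05. LIN37, of the DREAM complex that represses cell-cycle genes, was at -0.34. RIF1, an effector of 53BP1, and USP15, a deubiquitinase, were at -0.33 each. Both lost the call without the first 2023 culture (adjusted p = 0.131 and 0.0743), and USP15 also without the second (adjusted p = 0.0888). SMG1, the kinase of nonsense-mediated decay, was at -0.32. EME1, the partner of the MUS81 nuclease, was at -0.31.

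The 12 partners with the highest differences had growth values from -4.09 to -0.90 without drug. PRIM1, the catalytic subunit of primase, had the highest. With C4orf27 it stood at 1.56 and 0.96 in 2022 and 1.74 and 0.75 in 2023, and with non-targeting sgRNAs at 0.08, 0.04, 0.02 and -0.07, so the groups were far apart. The difference was 1.27 ± 0.17 (SE; edgeR, adjusted p = 2.71e-05). Its sgRNA pairings spread widely, from 0.17 to 2.69, and the lowest sum of one pairing was 5 reads.

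CLSPN (Claspin), which carries the ATR signal to CHK1, stood at 1.76, 0.82, 1.63 and 1.06 with C4orf27 and at 0.20, 0.13, 0.23 and 0.10 without. The difference was 1.15 ± 0.16 (SE; edgeR, adjusted p = 4.28e-05). SARS, the seryl-tRNA synthetase, stood at 1.38, 1.16, 1.27 and 1.06 against 0.24, 0.14, 0.14 and 0.10. Its difference was 1.08 ± 0.12 (SE; edgeR, adjusted p = 7.71e-06). It rests on 1 of its 2 sgRNAs: the other had 8 reads over the 12 libraries of this background and 0 in the drug arms.

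Others of these 12 serve ribosome and telomerase assembly, transcription, division and metabolism. NOP10 and DKC1, subunits of the H/ACA ribonucleoprotein, were at 1.09 and 0.98. POLR1B, of RNA polymerase I, was at 1.20. DCTN3, of the dynactin complex, was at 1.21, and the mitotic kinase PLK1 at 1.09. MCM2, of the replicative helicase, was at 1.05, CSTF1, which acts in mRNA 3′ end cleavage, at 0.99, CAD, which starts pyrimidine synthesis, at 0.99, and MVD, of the mevalonate pathway, at 0.97. All 12 were called higher under both scalings. CAD had the lowest depth, with a median of 84 reads, and it turned negative when each background was scaled to its own doublings (-0.18).

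**Figure D4:**
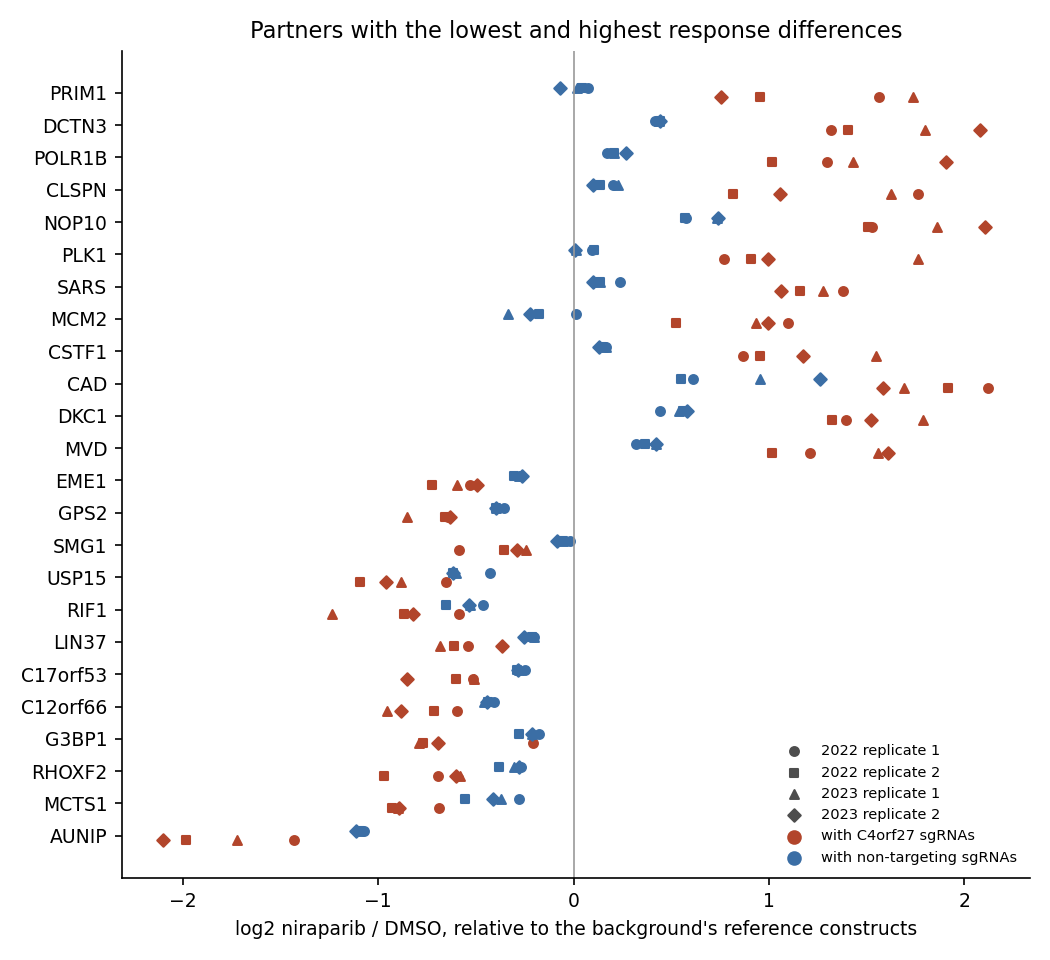
Log2 response by culture for the 12 partners with the highest and the 12 with the lowest response differences, with C4orf27 sgRNAs (red) and with non-targeting sgRNAs (blue), each relative to its background's reference constructs. The red points of PRIM1 run from 0.75 to 1.74 while its blue points lie near 0, and the red points of AUNIP lie below its blue points near -1.09.

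Members of the ADP-ribose list other than PARP1 responded little. PARP2, which can also work with HPF1, was at 0.31, 0.31, 0.17 and 0.37 with C4orf27 and at 0.12, 0.07, 0.09 and 0.06 with non-targeting sgRNAs. The groups did not overlap, and the difference was 0.20 ± 0.04 (SE; edgeR, adjusted p = 0.00108), but it fell to 0.08 with TMM scaling and 0.04 with median-of-ratios scaling, which lost the call. The PARP2 pairings were unequal. They gave mean responses of 0.42 and 0.71 with the C4orf27 sgRNA named with -, and 0.06 and 0.17 with the one named with +. PARG, which removes ADP-ribose chains, had a difference of 0.14 (adjusted p = 0.159). CHD1L, a remodeller that binds ADP-ribose, also had one of 0.14 (adjusted p = 0.055). Without the first or the second 2022 culture CHD1L was at 0.17 and 0.11. Of the 4 measured members, 2 were higher, beside 53.9% of all partners, and 2 did not pass. Their median was 0.17 beside 0.18 over all partners.

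Of the 5 measured genes for repair of damaged bases and nicks, 3 had a higher response difference, beside 53.9% of all partners, and 2 did not pass. All 5 were lower with non-targeting sgRNAs, beside 35.6% of all partners. In the C4orf27 background 4 of 5 were lower than C4orf27 alone, beside 25.5% of all partners. POLB, the gap-filling polymerase, stood at -1.59, -1.55, -1.51 and -1.75 with C4orf27 and at -1.74, -1.75, -2.07 and -2.07 with non-targeting sgRNAs. Its difference was 0.31 ± 0.04 (SE; edgeR, adjusted p = 4.86e-05) and its growth value was 0.02. It was not called with the C4orf27 sgRNA in the second position (0.16, adjusted p = 0.134), and scaling to each background's doublings turned it to a lower call (-0.41, adjusted p = 0.0417). XRCC1, the scaffold that PARP1 activity brings to breaks, stood at -1.29 ± 0.14 against -1.67 ± 0.29 (SD, n = 4 each), a difference of 0.38 (adjusted p = 0.0129). LIG1, the replicative ligase, had a difference of 0.46 (adjusted p = 0.000982), which each background's doublings reduced to 0.11 (adjusted p = 0.533).

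LIG3, the ligase that XRCC1 holds at nicks, did not pass. It stood at -1.08, -1.08, -1.10 and -0.95 with C4orf27 and at -0.83, -0.94, -1.03 and -1.04 with non-targeting sgRNAs. The ranges overlap, and the difference was -0.10 ± 0.05 (SE; edgeR, adjusted p = 0.0829). With TMM scaling LIG3 was called lower (-0.22), and XRCC1 was no longer called (0.26, adjusted p = 0.0671). XRCC1 was also not called without the first or the second 2023 culture (adjusted p = 0.136 and 0.0904). With each background's doublings XRCC1 and LIG3 were both called lower (-0.56 and -0.85, adjusted p = 0.0171 and 0.00153). Whether LIG3 differs from POLB and XRCC1 was not tested.

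Both NAD supply genes sensitised less in the C4orf27 background. NAMPT makes NMN, and NMNAT1 turns NMN into NAD in the nucleus, where PARP1 consumes it. NAMPT stood at -0.82, -1.20, -1.29 and -1.21 with C4orf27 and at -1.82, -1.98, -2.03 and -2.07 with non-targeting sgRNAs, with no overlap. The difference was 0.84 ± 0.08 (SE; edgeR, adjusted p = 1.77e-06). NMNAT1 had a difference of 0.64 (adjusted p = 6.92e-06), from -0.97 ± 0.11 to -0.33 ± 0.13 (SD, n = 4 each). Their growth values were -0.88 and -1.39, a range in which most partners were higher, and scaling to each background's doublings gave -0.025 for NAMPT and -0.12 for NMNAT1.

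DNPH1, which removes damaged nucleotide monophosphates from the DNA precursor pool, did not pass. It stood at -2.07, -2.01, -1.84 and -1.72 with C4orf27 and at -2.01, -1.83, -1.81 and -1.79 with non-targeting sgRNAs. The ranges overlap and the difference was -0.05 ± 0.05 (SE; edgeR, adjusted p = 0.436). Under TMM scaling it was -0.17 and was called lower (adjusted p = 0.019), and with each background's doublings it was -1.11 (adjusted p = 0.000923). Whether DNPH1 differs from NAMPT and NMNAT1 was not tested. Both knockdowns together stood at -3.35 ± 0.04 (SD, n = 4) against non-targeting constructs.

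Most homologous recombination genes sensitised cells in both backgrounds. Of 28 members, 22 were lower than C4orf27 alone, beside 25.5% of all partners, and 3 were higher, beside 50%. With non-targeting sgRNAs 25 were lower, beside 35.6% of all partners, and 1 was higher, beside 44.6%. BARD1, the BRCA1 partner, had the lowest response of all partners in the C4orf27 background, at -2.65, -3.75, -3.17 and -3.26. With non-targeting sgRNAs it was -2.97, -3.78, -3.91 and -3.97. Its sgRNA pairings with C4orf27 gave mean responses from -4.53 to -2.40, and the lowest sum of one pairing was 2 reads. The difference of 0.44 ± 0.35 (SE; edgeR, adjusted p = 0.295) did not pass. It was 0.38 and 0.52 when the first or the second 2022 culture was left out. BRCA2, a mediator of strand exchange, stood at -0.38, -1.91, -2.58 and -2.42, so the first 2022 culture was far from the others, and its difference was 0.39 (adjusted p = 0.331). Without the first or the second 2022 culture it was 0.26 and 0.52. The sgRNA pairings of BRCA2 gave mean responses from -3.15 to -0.95, and the lowest sum of one pairing was 4 reads.

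The response difference of the 28 genes was lower for 6, beside 9.96% of all partners, and higher for 7, beside 53.9%. It was not past the threshold for 15, and its median was 0.05 beside 0.18 over all partners. Under TMM and median-of-ratios scaling 9 and 11 were lower and 4 and 4 higher, and the list's median turned negative (-0.07 and -0.12). Lower members besides AUNIP and C17orf53 were SWSAP1 (-0.21), SFR1 (-0.17), MCM9 (-0.12) and HELQ (-0.10), recombination cofactors and late helicases. The last 3 lie within the range of the control pairs or at its edge.

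BRCA1 stood at -1.17, -1.39, -1.65 and -1.56 with C4orf27 and at -1.68, -1.95, -1.99 and -2.11 with non-targeting sgRNAs. Every value with C4orf27 was above every value without it, and the difference was 0.49 ± 0.10 (SE; edgeR, adjusted p = 0.0011). That difference lost the call with the C4orf27 sgRNA in the first position (0.28, adjusted p = 0.176). Higher members also included DNA2 (0.49), RAD51C (0.42), XRCC3 (0.40), MRE11A (0.27) and NBN (0.23). On the scale of each background's doublings, which enlarges negative drug-arm changes more with C4orf27, BRCA1 was at -0.42. BARD1 and BRCA2 were at -2.04 and -1.42 on that scale.

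Most Fanconi anemia genes, which build the ligase that ubiquitylates FANCD2 and FANCI at stalled forks, sensitised in both backgrounds. Of 15 measured, 13 were lower than C4orf27 alone, beside 25.5% of all partners, and 0 were higher. All 15 were lower with non-targeting sgRNAs, beside 35.6% of all partners. Their response difference was lower for 4, beside 9.96% of all partners, and higher for 2, beside 53.9%. It was not past the threshold for 9, and its median was -0.02. Under TMM scaling 8 were lower and 0 higher. The 4 lower ones were FANCF (-0.28), UBE2T (-0.26), FANCD2 (-0.25) and FANCE (-0.21), which are a core subunit pair, the ubiquitin-conjugating enzyme and its target. FANCF stood at -0.99, -1.15, -1.09 and -0.99 with C4orf27 and at -0.68, -0.80, -0.77 and -0.83 with non-targeting sgRNAs, with no overlap, but lost the call without the first 2023 culture (adjusted p = 0.0591). UBE2T lost it without the first or the second 2023 culture (-0.21 and -0.31, adjusted p = 0.241 and 0.102), in the 2022 screen alone (-0.13, adjusted p = 0.413) and with the mean of construct log2 ratios (-0.02, adjusted p = 0.791). The higher ones were WDR48 (0.27), a cofactor of the deubiquitinase that reverses the mark, and FANCG (0.24). WDR48 was no longer called with TMM scaling (0.15, adjusted p = 0.0948) and stood at -0.11 with each background's doublings.

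**Figure D5:**
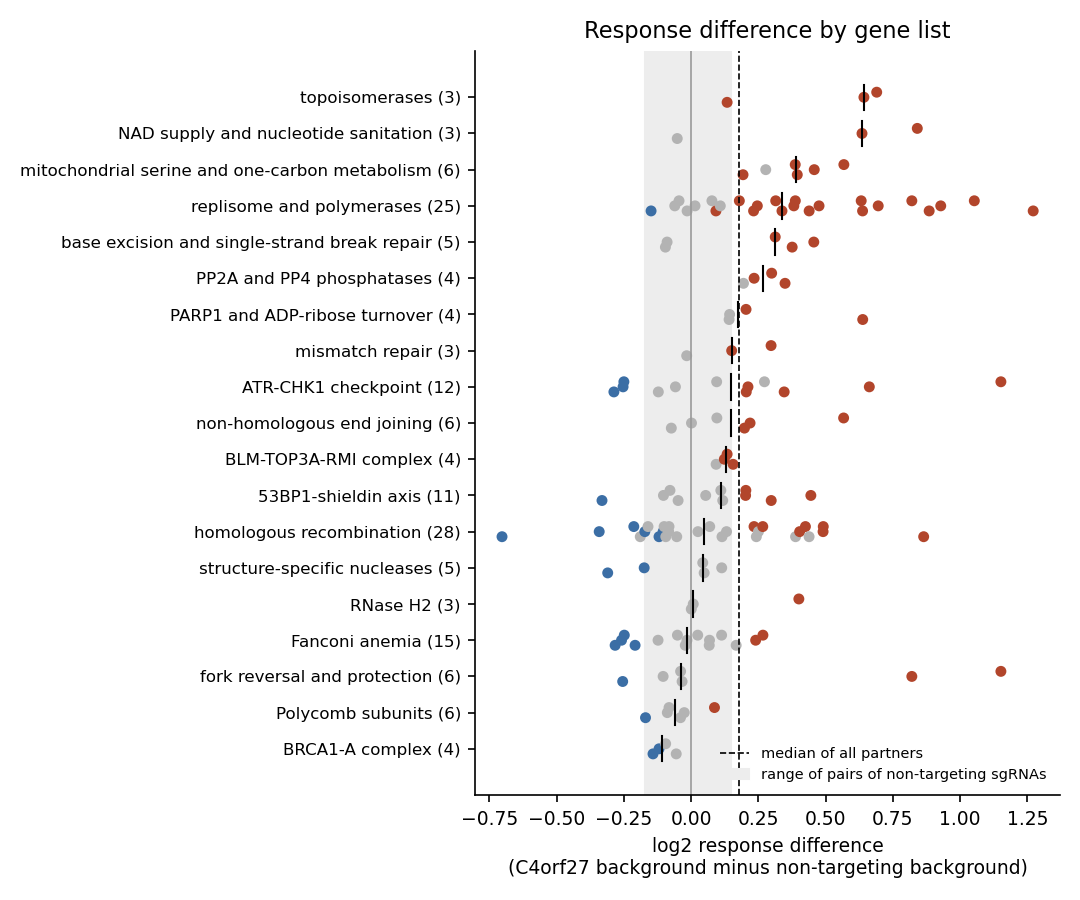
Response difference (log2) of each member of the lists with at least 3 measured genes, in red where higher, in blue where lower and in grey where not past the threshold. Black bars are list medians, the dashed line is the median of all 542 partners (0.18) and the grey band is the range of the 27 control pairs (-0.17 to 0.15).

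Genes that restrain resection gave mixed differences. TP53BP1 (53BP1), whose loss restores recombination to BRCA1-deficient cells, stood at 1.09, 0.44, 0.62 and 0.51 with C4orf27 and at 0.55, 0.12, 0.13 and 0.10 with non-targeting sgRNAs. The ranges overlap through the first 2022 culture, but each culture was higher with C4orf27. The difference was 0.45 ± 0.12 (SE; edgeR, adjusted p = 0.00702), and it lost the call without the first or the second 2023 culture (adjusted p = 0.124 and 0.0909). It passed in 18 of 25 alternatives. Other losses included the first C4orf27 sgRNA alone (0.23, adjusted p = 0.176) and the C4orf27 sgRNA in the second position (0.31, adjusted p = 0.0724). RNF8, the ligase that recruits 53BP1, was at 0.30, and the shieldin subunits MAD2L2 and FAM35A were at 0.20 each. RIF1 was the lower member, at -0.33. In the list of 11, 4 were higher, beside 53.9% of all partners, 1 was lower, beside 9.96%, and 6 did not pass. Under TMM scaling 2 were higher and 4 lower.

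Of 6 end-joining genes 3 were higher, near the 53.9% of all partners, and 3 did not pass. Under TMM scaling 1 was higher and 2 were lower. XRCC5 (Ku80) had a difference of 0.57 (adjusted p = 0.000138) with a growth value of -1.61, and with each background's doublings it was not called (0.23, adjusted p = 0.353). NHEJ1 (XLF) and XRCC6 (Ku70) were at 0.22 and 0.20, and TMM scaling lost both calls (0.10 and 0.08). Both were also lost without the first or the second 2023 culture (adjusted p = 0.0974 and 0.0869 for NHEJ1, 0.0547 and 0.212 for XRCC6). LIG4, XRCC4 and PRKDC did not pass. POLQ, the polymerase of theta-mediated end joining, was at -0.10 (adjusted p = 0.109) and was called lower with TMM scaling (-0.22, adjusted p = 0.00412).

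The BRCA1-A complex binds ubiquitylated chromatin and limits resection. It had 2 lower members of 4, beside 9.96% of all partners, and 0 higher, beside 53.9%. The list's median was -0.11, and the lower members were UIMC1 (-0.14) and FAM175A (-0.12). Both values lie within the range of the control pairs. Under either scaling all 4 were called lower. UIMC1 lost its call without the first or the second 2023 culture (adjusted p = 0.0961 and 0.16), and with each background's doublings neither was called (adjusted p = 0.0938 for UIMC1 and 0.0623 for FAM175A).

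In the ATR-CHK1 list of 12 genes, 3 were lower, beside 9.96% of all partners, 5 were higher, beside 53.9%, and 4 did not pass. The lower ones were ATRIP (-0.29), the partner of ATR, RAD1 (-0.25), of the 9-1-1 clamp, and ETAA1 (-0.25), an activator of ATR. The higher ones were CLSPN (1.15), ATR itself (0.66), TOPBP1 (0.35), WEE1 (0.21) and CHEK1 (0.20). ATR and ATRIP thus had opposite signs. Under TMM scaling 4 of the 12 were lower and 3 higher. ATR had a growth value of -1.63, lost its call without the first 2023 culture (0.53, adjusted p = 0.131) and turned to -0.25 when each background was scaled to its own doublings. TOPBP1 lost its call without the same culture (0.25, adjusted p = 0.103) and with median-of-ratios scaling (0.18, adjusted p = 0.0515), and was at -0.064 with each background's doublings.

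The replisome, among the longest lists, had the largest number of higher members. Of 25 genes, 18 were higher, beside 53.9% of all partners, 1 was lower, beside 9.96%, and 6 did not pass. The median was 0.34 beside 0.18 over all partners. Its median growth value was -0.84, and of the 115 partners with growth values between -1 and -0.5, 93 were higher. Under TMM scaling 13 were higher and 5 lower, and under median-of-ratios scaling 12 and 5. After PRIM1 and MCM2 came MCM4 (0.93), RFC3 of the clamp loader (0.89) and WDHD1 (0.82), which tethers polymerase alpha to the helicase. WDHD1 was among the partners that sensitised most with non-targeting sgRNAs, at -1.41 ± 0.36, and stood at -0.59 ± 0.24 with C4orf27 (SD, n = 4 each). With each background's doublings MCM4 and WDHD1 were not called (0.53 and 0.17, adjusted p = 0.0619 and 0.353). RFC1, RFC4 and RFC5 were lower than C4orf27 alone yet had higher differences (0.25, 0.34 and 0.39). DBF4, the activator of the CDC7 kinase, was the lower member (-0.15).

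Of 6 genes for fork reversal and protection, 1 was lower, beside 9.96% of all partners, and 2 were higher, beside 53.9%. The other 3 did not pass, and the list's median was -0.04. The higher ones were CLSPN (1.15) and WDHD1 (0.82), and ZRANB3, HLTF and CXorf57 did not pass. Under TMM scaling 4 were lower and 2 higher. SMARCAL1, which reverses stalled forks, stood at -0.30, -0.33, -0.35 and -0.46 with C4orf27 and at -0.08, -0.09, -0.12 and -0.13 with non-targeting sgRNAs, with no overlap. The difference was -0.25 ± 0.04 (SE; edgeR, adjusted p = 0.000117). RAD18, the ligase of PCNA ubiquitylation and not of that list, was lower (-0.26) and lost the call without the second 2023 culture (-0.17, adjusted p = 0.0585). Of 5 structure-specific nuclease genes 2 were lower, beside 9.96% of all partners, and 3 did not pass. MUS81 was lower with its partner EME1 (-0.17 and -0.31), and MUS81 lost the call without the first 2023 culture (-0.14, adjusted p = 0.161). SLX4 was at 0.11 (adjusted p = 0.431) and at 0.20 without the second 2022 culture. It was called lower with each background's doublings (-0.76, adjusted p = 0.00813). GEN1 and ERCC1 were at 0.04 and 0.05.

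All 3 measured topoisomerases were higher, beside 53.9% of all partners, and 2 of 3 were under either TMM or median-of-ratios scaling. TOP1 stood at 1.27, 1.14, 1.19 and 1.12 with C4orf27 and at 0.44, 0.44, 0.54 and 0.53 with non-targeting sgRNAs, a clear separation with little spread. The difference was 0.69 ± 0.05 (SE; edgeR, adjusted p = 4.2e-07), and it passed in all 25 alternatives. TOP2A was at 0.64. TOP3A was at 0.13, within the range of the control pairs, and turned to -0.032 under median-of-ratios scaling. It lost its call under TMM scaling (0.01, adjusted p = 0.833), without the second 2022 culture (adjusted p = 0.189), without either 2023 culture (adjusted p = 0.223 and 0.102) and with each background's doublings (0.10, adjusted p = 0.534). TOP1 and TOP2A had growth values of -1.55 and -1.75.

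Metabolic and phosphatase partners with higher responses with non-targeting sgRNAs had higher responses in the C4orf27 background as well. Whether these values mean protection from the drug was not tested. All 6 genes of mitochondrial serine and one-carbon metabolism were higher in both backgrounds, beside 50% of all partners with C4orf27 and 44.6% with non-targeting sgRNAs. A higher difference was found for 5 of 6, beside 53.9% of all partners, led by MTHFD2 (0.57) and MTHFD1 (0.46). Their median growth value was -1.31, and of the 121 partners with growth values between -2 and -1, 115 had a higher difference. MTHFD1 lost the call without the second culture of either screen (adjusted p = 0.051 and 0.0904) and with each background's doublings (0.07, adjusted p = 0.845). Of 4 phosphatase subunits 3 had a higher difference, beside 53.9% of all partners. PPP2R1A, the PP2A scaffold, stood at 1.23 ± 0.18 with C4orf27 and 0.88 ± 0.15 with non-targeting sgRNAs (SD, n = 4 each). Under median-of-ratios scaling 2 of the 6 and 1 of the 4 had a higher difference.

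The other lists were small. MSH6, of mismatch repair, was higher (0.15), turned to -0.016 under median-of-ratios scaling and was not called without the first 2023 culture (adjusted p = 0.134). In the dissolvase list RMI2, BLM and TOP3A were at 0.12, 0.16 and 0.13, all near the range of the control pairs and all below 0 under median-of-ratios scaling. BLM lost its call without either 2022 culture and without the first 2023 culture (adjusted p = 0.0696, 0.0566 and 0.241), and RMI2 without the first 2023 culture (adjusted p = 0.0563). None of MSH6, BLM, TOP3A and RMI2 was called with each background's doublings, where BLM stood at -0.29. EZH2, the Polycomb methyltransferase, was lower (-0.17) and BMI1 higher (0.09), with BMI1 at -0.033 under TMM scaling and not called without either 2023 culture (adjusted p = 0.112 and 0.115). Neither was called with each background's doublings (adjusted p = 0.133 and 0.198). The SMC5-SMC6 subunits NDNL2 and SMC6 were at 0.43 and 0.28, and NDNL2 lost its call without either 2023 culture (adjusted p = 0.0515 and 0.148). With each background's doublings NDNL2 turned to a lower call (-0.80, adjusted p = 0.00318) and SMC6 stood at -0.32 (adjusted p = 0.0659). HLTF and CHTF18 did not pass (-0.04 and -0.02). HLTF was at -0.084 and -0.13 without the second 2022 or the second 2023 culture. CHTF18 was called lower with each background's doublings (-0.65, adjusted p = 0.00548).

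Growth without drug hardly differed between the backgrounds. Of 542 partners 1 passed the threshold (0.185%), with 27 at an unadjusted p under 0.05 in edgeR, 12 called by DESeq2 and 0 by limma. Its count rose to 39 and 62 without the first or the second 2022 culture. The 1 partner was RNASEH2C, a subunit of the enzyme that removes ribonucleotides from DNA. Its growth value in the C4orf27 background minus that with non-targeting sgRNAs was -0.20, -0.39, -0.51 and -0.40 in the 4 cultures, below 0 in each. The fitted difference was -0.37 ± 0.06 (SE; edgeR, adjusted p = 0.00975). It lost the call without either 2023 culture (adjusted p = 0.877 and 0.956).

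RNASEH2C also had a niraparib response difference of 0.40 (adjusted p = 8.18e-05), while RNASEH2A and RNASEH2B, the other subunits, were at 0.00 and 0.01. Those 2 were below 0 under TMM scaling (-0.12 and -0.11). With each background's doublings RNASEH2C turned to -0.25 (adjusted p = 0.103) and RNASEH2B to -0.38 (adjusted p = 0.0295).

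The 2 screens, which differ in dose and length of treatment, did not give response differences that could be told apart by test. Of 542 partners 0 passed for the change between screens in edgeR, with 71 at an unadjusted p under 0.05 and a lowest adjusted p of 0.245. DESeq2 called 11 of the 92 named partners. Taken alone, the 2022 screen had 37 lower and 225 higher partners and the 2023 screen 30 and 251.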

How the data were processed

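The deposited tables hold raw counts of reads per dual-sgRNA construct in each library, which the values bear out as whole numbers with unequal totals. Bowtie2 2.3.4.1 is named in the submitters' processing notes, without its role. The deposited phenotype tables hold log2 values that the authors computed per replicate; only the constants by which they were divided were used here, recovered from the counts. Which screen a count table belongs to was taken from the sample labels.

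Counts were summed per partner gene, and library sizes were the sums over the reference constructs of each background. Sums averaging under 10 reads would have been left out; none were. edgeR 4.0.16 (limma 3.58.1, R 4.3.3) was fitted to all 12 libraries, T0 included, with a block for each culture within each background and the arm within each screen. The T0 libraries share the estimate of the spread. The biological coefficient of variation was 6.22% in the C4orf27 background and 3.12% with non-targeting sgRNAs. DESeq2 1.42.0 and limma were alternatives.

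Per the labels, both arms of a culture were split from the cells sampled at T0, so the replicate number pairs libraries. On simulated counts for 569 features with the depths of the response difference, 86% of 100 changes of 0.25 and 99% of 100 of 0.5 were called, with 9 of 369 unchanged features called. The simulation gave all features of a background the same dispersion and drew each count independently. In the data 4 of the 27 control pairs were called, so the simulated rates need not hold for the real partners.

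Named partners were the 12 lowest and 12 highest response differences and the 10 lowest and 10 highest responses in the C4orf27 background, past the threshold and of one sign in all 4 cultures; all members of the ADP-ribose and base excision lists; up to 3 members of each other list by size of difference; and the growth calls. Some partners that this rule selects are not reported here. Further list members were named with their counts after their values were seen. C4orf27, the members and the gene lists were chosen with earlier results of these data known. All 542 partner symbols matched the RefSeq gene table, 35 of them only as a synonym.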

Additional observations from a re-analysis of the deposited data

How the results depend on the processing

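The responses in the C4orf27 background kept their counts best: under every alternative run except the scaling to each background's doublings, both counts stayed within 1.5 times the values given above, and leaving out one culture gave 117 to 147 lower and 254 to 269 higher partners. Lower response differences numbered 31 with the mean of construct log2 ratios, 30 in the 2023 screen alone, 31 with the first C4orf27 sgRNA alone (the one with + in its name), 150 with TMM scaling, 173 with median-of-ratios scaling, 193 as residuals from a line on the partner's own response and 86 when scaled to the doublings of each background. Higher ones numbered 179 with median-of-ratios scaling, 131 as residuals and 133 with each background's doublings, which also left 82 higher responses in the C4orf27 background. Leaving out one culture gave 27 to 81 lower and 225 to 328 higher differences, and the lowest of both counts came without the first 2023 culture. Without the replicate block 51 were lower and 291 higher, 49 and 286 of them shared with the fit that holds the block. Filters on partner sums changed no count. Fits without one culture take their spread from the other screen alone, which limits what their counts show about that culture.

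The single growth call became 12 with DESeq2 and 0 with limma, with the mean of construct log2 ratios, in either screen alone, with the first C4orf27 sgRNA, with C4orf27 in the first position and with the second partner sgRNA, and 0 to 62 without one culture. The count of named partners that differed between screens became 11 with DESeq2, 1 with the second C4orf27 sgRNA and 0 to 12 without one culture. The response of C4orf27 alone was -0.95 with its first and -2.10 with its second sgRNA, -2.15 after scaling by the reference-arm doublings, and -1.49 to -1.40 without one culture.

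Of 2968 values of named partners under alternatives, 50 turned their sign. TMM scaling turned RNASEH2B (-0.11), RNASEH2A (-0.12) and BMI1 (-0.033). Median-of-ratios scaling turned these (-0.16, -0.17 and -0.080) and KIAA1524 (-0.14), BLM (-0.011), TOP3A (-0.032), RMI2 (-0.044) and MSH6 (-0.016). Residuals from the line turned PARP1 (-0.064), PARP2 (-0.053), NHEJ1 (-0.033), XRCC6 (-0.075), KIAA1524 (-0.17), RNASEH2B (-0.21), RNASEH2A (-0.23), BLM (-0.10), TOP3A (-0.10), RMI2 (-0.12), MSH6 (-0.071), PPP2R1A (-0.073), PPP2R2A (-0.16) and BMI1 (-0.15). The first partner sgRNA alone turned RNASEH2A (-0.15), BLM (-0.0094) and RMI2 (-0.0071), and the second turned EZH2 (0.044). Scaling to each background's doublings turned CAD (-0.18, and -0.86 for its response with C4orf27), BARD1 (-2.04), BRCA2 (-1.42), RBBP8 (-1.16), POLB (-0.41), BRCA1 (-0.42), FANCB (-0.88), RAD54L (-0.92), XRCC1 (-0.56), NAMPT (-0.025), NMNAT1 (-0.12), WDR48 (-0.11), ATR (-0.25), TOPBP1 (-0.064), RNASEH2C (-0.25), RNASEH2B (-0.38), SLX4 (-0.76), BLM (-0.29), NDNL2 (-0.80) and SMC6 (-0.32). The analyses by each background's doublings and by single partner sgRNAs were chosen after seeing the data. The causes were not tested.

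Depth limits the partners that grow poorly and those strongly depleted under niraparib. CAD had as few as 37 reads in a library of the C4orf27 background, and a BARD1 sgRNA pairing as few as 2. The control pairs in that background spread with an SD of 0.08.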
